A study of Homo sapiens with 6 samples.

Results

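The 9 SOX transcription factors of the neural crest lineage, *SOX2*, *SOX4*, *SOX5*, *SOX6*, *SOX8*, *SOX9*, *SOX10*, *SOX11* and *SOX12*, were followed in total RNA of a human neuroblastoma cell line. They were taken by name from the 60651 genes counted. The study asked how the oncogene *MYCN* shapes the RNA of neuroblastoma, a childhood tumour of the sympathetic nervous system. It used 6 libraries, 3 titled EtOH for ethanol, the solvent control, and 3 titled Tet for tetracycline, given for 5 days per the labels. The titles name IMR-5/75, a *MYCN*-amplified line, and a tag marks each library as control or induction of a knockdown. The protocol text describes another model, SK-N-SH cells in which *MYCN* expression is switched on by tetracycline, grown as single clones that carry a tetracycline repressor. The study itself describes an inducible *MYCN* shRNA in IMR-5/75. Which system the cells carried could not be settled from the labels, and the libraries are named here by their titles only. Values of single libraries follow the order of replicates 1, 2 and 3. Nothing in the labels says whether replicates were separate cultures, so p-values measure the spread between these libraries.

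SOX proteins bind DNA through a conserved HMG box, which fits into the minor groove and bends the helix, and they usually act with partner factors. They are sorted into subgroups by the sequence of that box. SOX2, of the SoxB1 subgroup, keeps stem and neural progenitor cells undifferentiated. SOX4, SOX11 and SOX12, the SoxC subgroup, act in neuronal and sympathetic precursors. SOX5 and SOX6, the SoxD subgroup, lack an activation domain of their own and modify the action of other SOX proteins. SOX8, SOX9 and SOX10, the SoxE subgroup, specify neural crest, and SOX10 later marks Schwann cells and melanocytes while SOX9 drives cartilage formation.

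A stretch of 72 bases within the HMG box is shown because it is what the 9 genes share and what a read could confuse. It codes for the 24-codon window of *SOX11* whose residues, summed over the genes, best matched a window in each. For each gene 1 transcript was used, and windows were scored by residues rather than bases. Capitals mark the 33 positions (45.8%) with the same base in all 9 genes. Each line reads 5′ to 3′ on the coding strand.
SOX2: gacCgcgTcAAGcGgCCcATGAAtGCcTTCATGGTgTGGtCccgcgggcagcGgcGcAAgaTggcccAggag
SOX4: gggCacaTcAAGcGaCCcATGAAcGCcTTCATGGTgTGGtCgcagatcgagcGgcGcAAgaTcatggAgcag
SOX11: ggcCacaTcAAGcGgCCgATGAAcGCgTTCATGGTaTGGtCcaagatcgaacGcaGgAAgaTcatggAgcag
SOX12: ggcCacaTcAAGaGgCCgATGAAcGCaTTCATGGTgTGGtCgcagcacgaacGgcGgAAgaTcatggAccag
SOX5: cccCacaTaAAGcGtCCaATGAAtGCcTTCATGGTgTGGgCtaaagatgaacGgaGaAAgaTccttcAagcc
SOX6: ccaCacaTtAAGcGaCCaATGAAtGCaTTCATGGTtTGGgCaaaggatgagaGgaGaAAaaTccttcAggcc
SOX8: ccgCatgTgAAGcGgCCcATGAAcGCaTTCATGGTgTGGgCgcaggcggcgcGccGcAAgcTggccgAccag
SOX9: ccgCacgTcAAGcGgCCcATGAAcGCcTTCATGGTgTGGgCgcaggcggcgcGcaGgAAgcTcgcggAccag
SOX10: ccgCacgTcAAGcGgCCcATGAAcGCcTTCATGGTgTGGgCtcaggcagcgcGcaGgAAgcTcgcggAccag

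On GRCh38 the window lay in 1 coding exon of each gene. Its coordinates were chr3:181712475-181712546 in *SOX2*, chr6:21594703-21594774 in *SOX4*, chr2:5692860-5692931 in *SOX11*, chr20:326036-326107 in *SOX12*, chr16:982220-982291 in *SOX8* and chr17:72121698-72121769 in *SOX9*, all on the plus strand. On the minus strand it lay at chr12:23543251-23543322 in *SOX5*, chr11:15989037-15989108 in *SOX6* and chr22:37983410-37983481 in *SOX10*. The other SoxC genes were closest to *SOX11*: *SOX12* had 62 and *SOX4* 61 of its 72 bases, against 47 to 53 for the other 6 genes. Only likeness to *SOX11* was counted in this window. Over the whole transcripts, the longest identical run was 45 bases, between *SOX9* and *SOX10*, followed by 37 bases between *SOX8* and *SOX9* and 35 between *SOX11* and *SOX12*. These runs were shorter than the reads of 150 nucleotides, which were counted only where they aligned to 1 place.

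The libraries held between 27933378 and 40498065 counts, so that 3 counts stood for 0.0741 to 0.107 CPM (a count relative to the TMM-scaled total of its library). *MYCN*, the gene the system was built to regulate, had 158, 256 and 156 CPM with EtOH against 197, 200.1 and 145 CPM with Tet. The groups overlapped, with a log2 fold change of -0.07 (adjusted p = 0.956 by edgeR, SE 0.23), so the labels could not be checked on *MYCN* and every direction below compares labels only. Along the first principal component, which held 44.7% of the variance and did not separate the labels, EtOH replicate 2 and Tet replicate 2 stood at one end with scores of 84.2 and 47.3. The second component, with 25.7%, did separate them: its scores were -39.1 to -34.7 with EtOH and 26.4 to 48.1 with Tet. Tet replicate 3 stood apart in another way. The most GC-rich genes (2245 genes with at least 57.3% GC in their exons) had a median of 0.84 log2 units above their 6-library mean in it, against -0.36 to 0.18 in the other 5 libraries.

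SOX RNA in these cells was almost wholly SoxC RNA. Levels were compared as TPM, a level per length of a gene's merged exons on a scale with the same total in every library. By TPM, *SOX11* was highest in each of the 6 libraries, followed by *SOX4*. For some genes the merged exons are longer than the 1 transcript used above, which lowers their TPM. *SOX5* has 11062 exon bases against 7076 in that transcript, and *SOX6* has 19640 against 9304. The 3 SoxC genes together held between 93.5% and 95.7% of the summed TPM of the 9 genes. *SOX11* had a mean of 196 TPM and ranked 331 among all genes, and *SOX4* had 103 TPM and ranked 934. The next gene, *SOX5*, had 6.10 TPM, so that the mean of *SOX4* was 16.9 times as high, and their ranges over the libraries did not overlap.

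**Figure D1:**
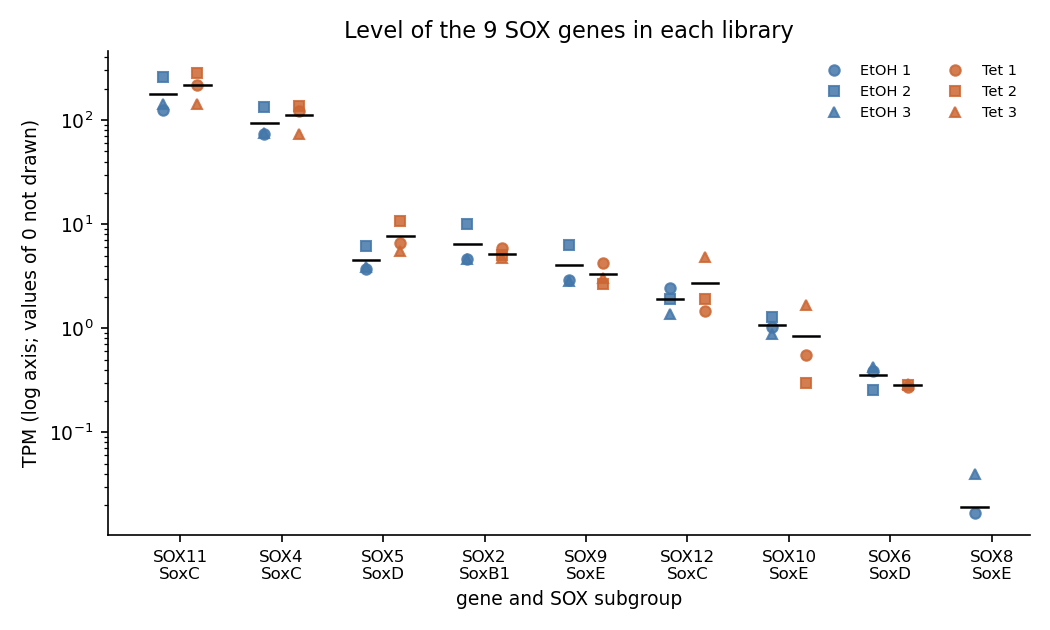
TPM on a log axis for each SOX gene, with the subgroup under its name, in 3 libraries labelled EtOH (blue) and 3 labelled Tet (orange). Symbols mark the replicate number, bars are group means, and values of 0 for *SOX8* are not drawn. *SOX11* and *SOX4* lie between 73.2 and 285 TPM in all libraries, and the other 7 genes lie at or under 10.8 TPM.

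Below the SoxC pair, *SOX5* (6.10 TPM), *SOX2* (5.82 TPM), *SOX9* (3.68 TPM) and *SOX12* (2.32 TPM) followed in a group of similar level. *SOX5* was above *SOX2* in 3 of 6 libraries and their ranges overlapped, so their order was not resolved. It also depends on the exon length taken for *SOX5*. *SOX2* was above *SOX9* in 6 of 6 libraries, by 0.67 ± 0.15 log2 units (mean ± SD of the within-library difference), although the ranges overlapped. *SOX9* was above *SOX12* in 5 of 6. *SOX10* had a mean of 0.956 TPM and *SOX6* of 0.320 TPM (6 of 6 libraries higher for *SOX10*, with overlapping ranges). *SOX8* (ENSG00000005513.10, chr16:981770-986979) had 1, 0 and 2 counts in EtOH replicates 1 to 3 and 0 in all 3 libraries labelled Tet. Its 3 counts in all did not exceed the 3 counts taken as the limit of detection, so no fold is given and it was not tested.

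No SOX gene passed the threshold between the labels in the fit without a replicate block. Of the 8 genes tested, 0 had an edgeR adjusted p under 0.05, in a comparison in which 0.236% of 22443 genes passed, and DESeq2 and limma-voom also called 0. At an unadjusted p under 0.05 there was 1, *SOX5*, which is 1 of 8 beside 10.8% of all genes, or 5.83% for genes higher in Tet. The 8 log2 fold changes (Tet over EtOH) ran from -0.24 to 0.82, 4 above and 4 below 0, with a median of 0.06 against -0.01 for all genes tested. *SOX5* was also the only one of the 8 whose groups did not overlap in CPM. All 3 libraries labelled Tet lay above all 3 labelled EtOH for 9.21% of all genes, and the groups were apart in either direction for 17.5%.

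**Figure D2:**
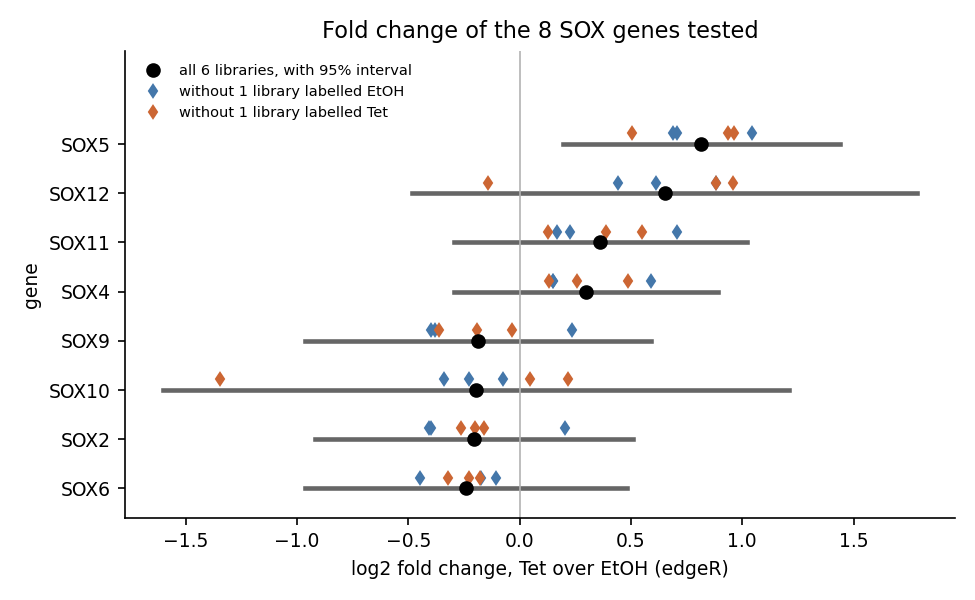
log2 fold change of the 8 SOX genes tested, Tet over EtOH. Black points and grey bars are the edgeR estimate and its 95% interval over all 6 libraries, and diamonds are fits that leave out 1 library labelled EtOH (blue) or Tet (orange). The interval of *SOX5* (0.19 to 1.44) lies above 0 before adjustment, and the diamonds of *SOX2*, *SOX9*, *SOX10* and *SOX12* fall on both sides of 0.

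*SOX11* (ENSG00000176887.7, chr2:5692384-5701385, plus strand), a gene of 1 exon, lies 10.24 Mb from *MYCN*. Its level was 420.2, 798 and 471 CPM with EtOH against 698, 944 and 530.5 CPM with Tet. EtOH replicate 2 was above 2 of the 3 libraries labelled Tet, and the groups overlapped. The means of 563 ± 205 and 724 ± 208 CPM (SD, n = 3 each) gave a log2 fold change of 0.36 (95% interval -0.30 to 1.02, adjusted p = 0.733 by edgeR, SE 0.29). It was 0.71 without EtOH replicate 2 and 0.13 without Tet replicate 2.

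*SOX4* (ENSG00000124766.7, chr6:21593751-21598619, plus strand), also of 1 exon, had 134, 222 and 134.5 CPM with EtOH against 212, 245 and 146 CPM with Tet. The libraries ranked in the same order for *SOX4* as for *SOX11*, with Tet replicate 2 highest and EtOH replicate 1 lowest. The log2 fold change of *SOX4* was 0.30 (95% interval -0.29 to 0.89, adjusted p = 0.767 by edgeR, SE 0.26), with 0.59 and 0.13 without the same libraries. Over the 6 libraries log2 CPM of both genes correlated with Pearson's r = 0.98 (exact permutation p = 0.00139, adjusted p = 0.0389 over 28 pairs of SOX genes) and Spearman's rho = 1 (exact permutation p = 0.00278). Without the 2 libraries farthest from the median of *SOX4*, r was 0.99. The libraries share the shift along the first component given above, and its part in this correlation was not tested.

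The ratio of *SOX11* to *SOX4* TPM varied little between libraries. It was 1.70, 1.94 and 1.89 with EtOH against 1.79, 2.08 and 1.96 in Tet replicates 1, 2 and 3. The means of 1.85 ± 0.128 and 1.94 ± 0.149 (SD, n = 3 each) differed by less than the spread between libraries (exact two-sided permutation test, p = 0.4, where 0.1 is the smallest this design allows). The summed SoxC level was 202, 399 and 219 TPM with EtOH and 343, 424 and 222 TPM with Tet (exact permutation p = 0.5).

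Many other genes ran parallel to both SoxC genes. By Pearson's r of log2 CPM over the 6 libraries, among 10186 other protein-coding genes with a mean of at least 1 TPM, the nearest to *SOX11* were *SOGA3* (r = 0.9961), *PGAP1* (0.9958) and *ZMYM4* (0.9957). The nearest to *SOX4* were *ARL6IP5* (0.9989), *PRKACB*, a catalytic subunit of protein kinase A (0.9979), and *SVIP* (0.9972). A total of 344 genes (3.38%) reached r = 0.95 with *SOX11* and 231 (2.27%) with *SOX4*, so these values describe a pattern over 6 points that is held in common. The log2 fold changes of the 6 named genes lay between 0.15 and 0.32, and their edgeR adjusted p-values between 0.744 and 0.833. They moved with single libraries, for example from 0.10 without Tet replicate 2 to 0.69 without EtOH replicate 2 for *SVIP*.

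*SOX12* (ENSG00000177732.9, chr20:325552-330224, plus strand), the least abundant SoxC gene, had 4.21, 2.99 and 2.35 CPM with EtOH against 2.45, 3.3 and 9.24 CPM with Tet. Tet replicate 3 alone stood above the EtOH range. The log2 fold change of 0.65 (95% interval -0.48 to 1.79, adjusted p = 0.718 by edgeR, SE 0.50) turned to -0.14 without that library. *SOX12* exons hold 62.2% GC, and the gene was 1.34 log2 units above its 6-library mean in Tet replicate 3, the library in which GC-rich genes were high. With each library's trend with GC content removed, a setting chosen after seeing the data, its log2 fold change was 0.15.

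*SOX5* (ENSG00000134532.19, chr12:23529504-24562544, minus strand) showed the largest difference among the 8 tested genes. Its level was 15.2, 23.05 and 15.7 CPM with EtOH against 25.9, 43.9 and 25.1 CPM with Tet. The highest EtOH library, replicate 2, stayed below the lowest Tet library, replicate 3. The means were 18.0 ± 4.41 and 31.6 ± 10.6 CPM (SD, n = 3 each), a ratio of 1.76, with a log2 fold change of 0.82 (SE 0.27, 95% interval 0.19 to 1.44, adjusted p = 0.317 by edgeR). It thus did not pass the threshold over all genes in the fit without a replicate block. In size, 12% of all genes tested had a log2 fold change at least as large. That of *SOX5* fell to 0.51 without Tet replicate 2 and rose to 1.04 without EtOH replicate 2. With the block *SOX5* passed (edgeR adjusted p = 0.0209), where 3.01% of all genes did. The replicate numbers were not shown to pair the libraries. In RNA from whole cultures, more cells that express a gene and more of its RNA per cell cannot be told apart. Of the summed TPM of the 9 genes, *SOX5* held 1.61% ± 0.139 with EtOH and 2.198% ± 0.322 with Tet (SD, n = 3 each), with no overlap (exact permutation p = 0.1, the smallest possible, adjusted p = 0.6 over the 9 genes).

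The 2 tested genes that lie inside *SOX5* introns on the other strand showed the same order of groups. So did others: all Tet libraries lay above all EtOH libraries for 4 of the 9 tested genes within 10 kb of a SOX gene. Over all genes the share was 9.21%. Another gene inside *SOX5* on that strand, ENSG00000256473, overlapped between groups. It had 4 to 6 counts with EtOH and 5 to 14 with Tet and was not tested. *SOX5-AS1* (ENSG00000256120.2, chr12:24223233-24260056), a long noncoding RNA, had 5.16, 7.97 and 6.41 CPM with EtOH against 11.2, 15.8 and 10.2 CPM with Tet. Its log2 fold change was 0.93 (SE 0.26, adjusted p = 0.225 by edgeR). *MIR920* (ENSG00000216192.1, chr12:24212421-24212495), a microRNA precursor, had 9, 7 and 7 counts with EtOH and 22, 23 and 36 counts with Tet, with a log2 fold change of 1.65 (adjusted p = 0.197 by edgeR, SE 0.43). Neither shares exon bases with *SOX5*. Strand was not used in the counting, however, so unspliced *SOX5* RNA that crosses either gene cannot be told apart from the gene itself.

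**Figure D3:**
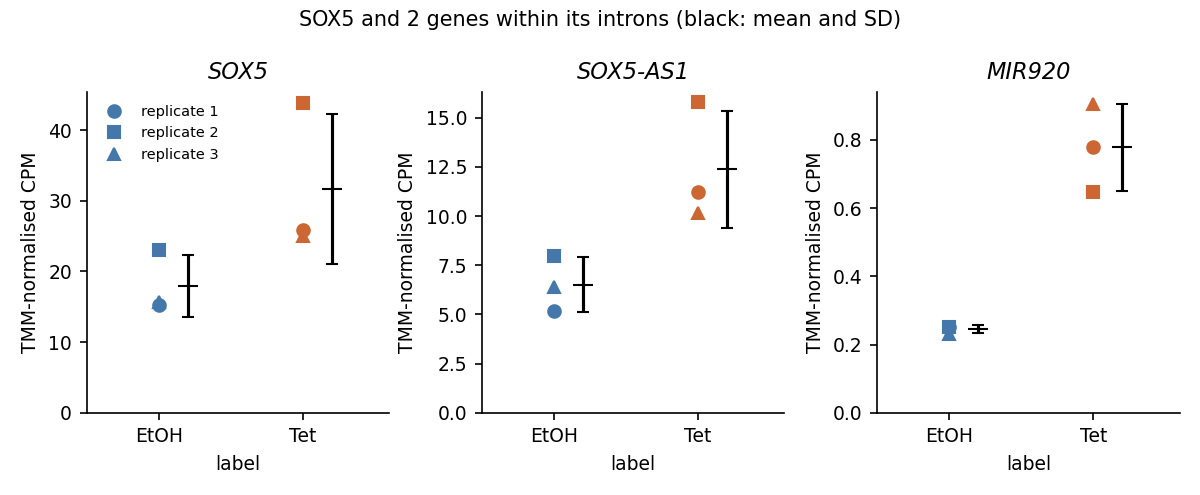
TMM-normalised CPM of *SOX5* and of *SOX5-AS1* and *MIR920*, which lie within its introns, by label. Symbols mark the replicate number, and black marks are the mean and SD of 3 libraries. In each panel all 3 libraries labelled Tet lie above all 3 labelled EtOH, and *MIR920* stays under 1 CPM.

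*SOX6* (ENSG00000110693.18, chr11:15966449-16739591, minus strand), the other SoxD gene, was low, with 2.80, 1.695 and 3.04 CPM with EtOH against 1.91, 2.07 and 2.37 CPM with Tet. The range with Tet lay wholly within that with EtOH. The log2 fold change was -0.24 (adjusted p = 0.862 by edgeR, SE 0.32), opposite in sign to that of *SOX5*. The difference between both genes was not tested. *C11orf58*, with a mean of 204 CPM over the 6 libraries, overlaps *SOX6* on the other strand but shares no exon bases with it. Strand was not used in the counting, so unspliced *C11orf58* RNA that crosses *SOX6* exons cannot be told apart from *SOX6* RNA.

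*SOX2* (ENSG00000181449.4, chr3:181711925-181714436, plus strand) had 4.32, 8.48 and 4.265 CPM with EtOH against 5.25, 4.63 and 4.91 CPM with Tet. EtOH replicate 2 was the highest library, and all libraries labelled Tet lay inside the EtOH range. The log2 fold change of -0.21 (95% interval -0.92 to 0.51, adjusted p = 0.886 by edgeR, SE 0.31) became 0.20 without EtOH replicate 2. *SOX2-OT*, the long noncoding RNA in whose intron *SOX2* lies, was likewise highest in EtOH replicate 2 (2.78 CPM against 1.07 to 1.76 CPM elsewhere), with a log2 fold change of -0.04 (adjusted p = 0.991 by edgeR, SE 0.43).

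*SOX9* (ENSG00000125398.8, chr17:72121020-72126416, plus strand) followed the same libraries as *SOX2*. Its level was 4.27, 8.40 and 4.10 CPM with EtOH against 5.955, 3.81 and 4.96 CPM with Tet. EtOH replicate 2 again stood highest. The log2 fold change was -0.19 (adjusted p = 0.910 by edgeR, SE 0.34), and 0.23 without that library. *SOX2* and *SOX9* correlated over the 6 libraries with Pearson's r = 0.94 (exact permutation p = 0.00694, adjusted p = 0.0972) and Spearman's rho = 0.83 (exact permutation p = 0.0583), and r was 0.83 without the 2 libraries farthest from the median. *SOX9-AS1*, which spans *SOX9* on the other strand, was under 1.1 CPM throughout, with a log2 fold change of -0.87 (adjusted p = 0.768 by edgeR, SE 0.76), which was -0.13 without EtOH replicate 1 and -2.01 without Tet replicate 3.

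*SOX10* (ENSG00000100146.18, chr22:37970686-37987422, minus strand) varied most among the libraries labelled Tet. It had 1.56, 1.785 and 1.32 CPM with EtOH against 0.798, 0.451 and 2.82 CPM with Tet. Tet replicates 1 and 2 were below every EtOH library, whereas Tet replicate 3 was above every one. The log2 fold change was -0.20 (95% interval -1.602 to 1.21, adjusted p = 0.954 by edgeR, SE 0.62), -1.35 without Tet replicate 3 (adjusted p = 0.414) and 0.22 without Tet replicate 2. *SOX10* exons hold 61.6% GC, and with the trend with GC content removed from each library the log2 fold change was -0.78 (edgeR adjusted p = 0.493). The part of GC content in the level of *SOX10* and *SOX12* in Tet replicate 3 was not tested beyond that setting. In addition, 2.18% of *SOX10* exon bases are shared with *POLR2F* on the other strand, which had 1.69 CPM in Tet replicate 3 and 0.415 to 1.88 CPM elsewhere.

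**Figure D4:**
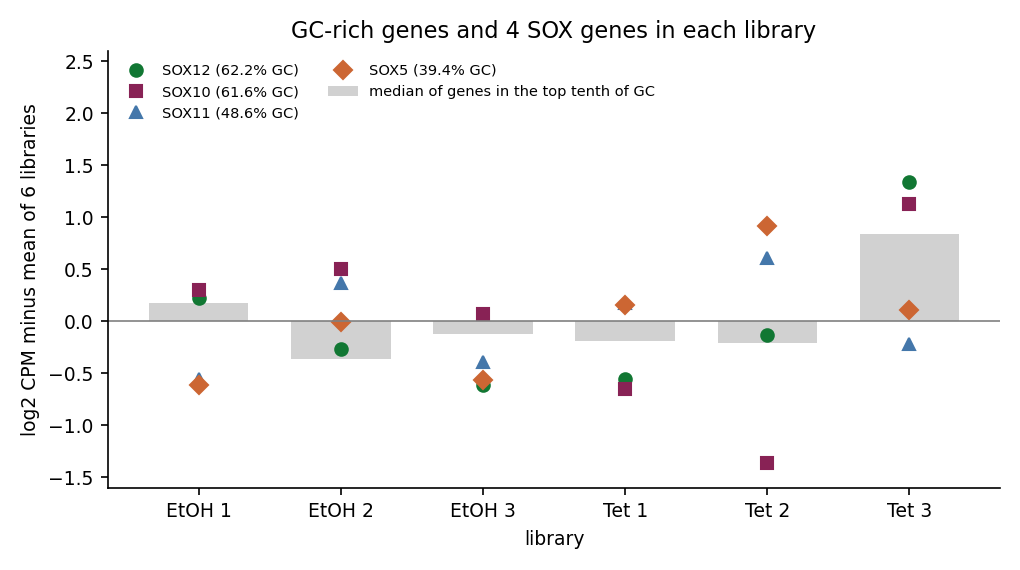
Deviation of log2 CPM from the mean of the 6 libraries, by library. Grey bars are the median over 2245 genes with at least 57.3% GC, and symbols are *SOX12* and *SOX10* (GC-rich) and *SOX11* and *SOX5* (less so). In Tet replicate 3 the bar is at 0.84, *SOX12* at 1.34 and *SOX10* at 1.13, while *SOX11* is at -0.22.

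Around the 9 genes, 25 other genes shared exon bases with one of them or came within 10 kb. Of these 9 were tested, and 0 passed the adjusted threshold in edgeR without a replicate block, DESeq2 or limma-voom. In edgeR 0.236% of all genes passed. At an unadjusted edgeR p under 0.05 there were 2, both within *SOX5* introns, beside 10.8% of all genes. Next to *SOX11*, ENSG00000230090 had a log2 fold change of 0.68. ENSG00000242540, which begins inside the *SOX11* exon on the same strand and shares 0.82% of that exon's bases, had 0.24. *NRSN2-AS1*, which spans *SOX12* on the other strand, had 0.43. *C11orf58*, which overlaps *SOX6* on the other strand, had 0.10 (edgeR adjusted p between 0.607 and 0.946 for these 4). An antisense RNA that covers 3.45% of the *SOX4* exon, ENSG00000283480, had 0.5 to 3 counts with EtOH and 6 to 15.5 counts with Tet, too few to be tested. The others that were not tested were *BOLA2P3*, *LINC01248*, *LINC00477*, *AKR1B1P3*, *RN7SL188P*, *MIR6073*, *LMF1*, *CEROX1*, *MIR4534*, *MIR6820* and the loci ENSG00000278026, ENSG00000256473, ENSG00000254878, ENSG00000260496 and ENSG00000288605.

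The rest of the SOX family was at low levels. Of 10 further SOX genes, 0 reached a mean of 1 TPM, *SOX1* and *SOX17* were at 0 in all libraries, and only 1 was tested, with a log2 fold change of -0.64 (edgeR adjusted p = 0.774). This was *SOX7*, a factor of endothelial cells named after its values were seen, at 1.16 ± 0.630 CPM with EtOH and 0.762 ± 0.385 CPM with Tet (SD, n = 3 each).

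Genes that SOX proteins act with or on were counted from lists, and 0 genes of the 6 lists of SOX relatives and linked genes passed the adjusted threshold in limma-voom or in edgeR with its filter and no replicate block. Without the filter edgeR called 1 higher (*DCX*) and 2 lower (*NES* and *HES1*, the last named after its values were seen), and without EtOH replicate 2 it called 2 higher (*DCX* and *SNAI2*). DESeq2 on all genes with a count called 1 higher (*DCX*) and 3 lower (*NES*, *POU3F2* and *HES1*), and on the genes edgeR tested it called 2 higher and 5 lower, adding *NEUROG2*, *MITF* and *TFAP2A*. Only the counts of edgeR follow, beside 10.8% of all genes at an unadjusted p under 0.05. Of 16 neural crest specifiers 10 were tested, of which 1 was higher and 1 lower at an unadjusted p under 0.05, with a median log2 fold change of -0.06. *TFAP2A*, an early inducer of crest, had 7.12 ± 0.639 CPM with EtOH and 4.01 ± 0.635 CPM with Tet (log2 fold change -0.83, edgeR adjusted p = 0.225). *SNAI2*, a driver of crest cell migration, had 1.62, 4.87 and 0.827 CPM with EtOH against 4.96, 16.3 and 4.78 CPM with Tet (log2 fold change 1.84, adjusted p = 0.389). It was 1.004 without Tet replicate 2 and 2.82 without EtOH replicate 2, where it passed (edgeR adjusted p = 0.0451). *TWIST1*, which acts in crest mesenchyme, had 51.2 ± 12.6 and 77.1 ± 25.9 CPM (log2 fold change 0.59, edgeR adjusted p = 0.474, and 0.28 without Tet replicate 2), and *PAX3* was at 0.

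Neuronal genes linked to *SOX4* and *SOX11* had a median above 0. Of 7 tested of 8, 3 were higher and 0 lower at an unadjusted p under 0.05, and the median log2 fold change was 0.43. At that p, 5.83% of all genes were higher in Tet. *DCX*, a microtubule protein of migrating neurons, had 502, 245.5 and 510.0 CPM with EtOH against 1095, 845 and 1082 CPM with Tet. All Tet libraries were above all EtOH libraries, with a log2 fold change of 1.27 (adjusted p = 0.134 by edgeR, SE 0.28). *NEUROG2*, a proneural factor, had 0.81 (adjusted p = 0.175) and *PROX1*, which acts in neuronal precursors that leave the cycle, 0.43 (adjusted p = 0.317).

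Genes linked to *SOX2* in stem and progenitor cells had a median below 0. Of 11 tested of 14, 1 was higher and 5 were lower at an unadjusted p under 0.05, and the median log2 fold change was -0.44. *NES*, an intermediate filament of progenitors, had 180.1, 260.2 and 223 CPM with EtOH against 104, 99.5 and 145 CPM with Tet, again with no overlap (log2 fold change -0.93, adjusted p = 0.135 by edgeR, SE 0.21). *POU3F2*, a partner factor of SOX2 in neural progenitors, had -0.998 (adjusted p = 0.207) and *SALL4*, a stem cell factor, -0.54 (adjusted p = 0.361). *SOX2* itself did not show this separation, as given above, and *POU3F3* and *HES5* were at 0.

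Genes linked to SOX10 and to SOX9 were mostly low. In the glial, Schwann cell and melanocyte list, 7 of 13 genes were tested and only 2 reached a mean of 1 TPM, with 0 higher and 2 lower at an unadjusted p under 0.05 and a median log2 fold change of -0.38. *MITF*, the master factor of melanocytes, had 27.4 ± 3.07 CPM with EtOH and 18.0 ± 0.653 CPM with Tet (log2 fold change -0.60, edgeR adjusted p = 0.211). *S100B* was at 0. Among cartilage matrix genes 4 of 11 were tested, 1 of them lower at an unadjusted p under 0.05, with a median of -0.49. The lower gene was *COL2A1*, named after its values were seen, with 68 counts in all. Its log2 fold change was -2.197 (edgeR adjusted p = 0.2755). *CNMD*, a cartilage protein, had -0.73 (edgeR adjusted p = 0.711, and -0.20 without EtOH replicate 2) and *HAPLN1* was at 0.

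Markers of neuroblastoma cell states were set beside these genes. The 14 adrenergic markers summed to 611 to 639 TPM with EtOH and 692 to 808 TPM with Tet. At an unadjusted p under 0.05, 8 of the 12 tested were higher and 0 lower, beside 10.8% of all genes (5.83% higher in Tet). Only *DDC* passed the adjusted threshold (it and *TH* are named after their values were seen). It encodes the decarboxylase of catecholamine synthesis and had a log2 fold change of 3.55 (edgeR adjusted p = 0.0280), whereas *TH*, the first enzyme of that pathway, had 1 count in all. The 11 mesenchymal-type markers summed to 127 to 243 TPM with EtOH and 113 to 163 TPM with Tet, with 1 higher and 2 lower of 10 tested at an unadjusted p under 0.05. The 7 Schwann cell markers, *SOX10* among them, summed to 3.001 to 3.32 TPM with EtOH and 1.76 to 4.17 TPM with Tet, and *S100B* was at 0. The part of these markers in the values of the SOX genes was not tested.

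**Figure D5:**
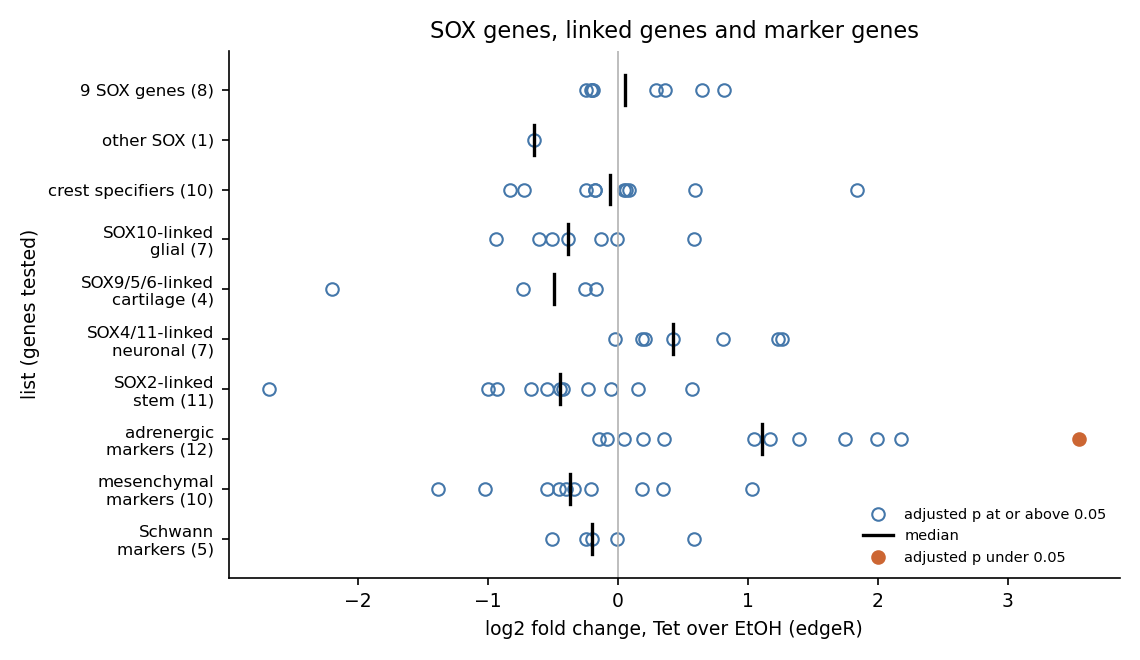
log2 fold change, Tet over EtOH, of each gene tested among the SOX genes, the lists of SOX relatives and linked genes, and the marker lists. Open circles have an edgeR adjusted p at or above 0.05, the filled circle one under 0.05, and bars are medians. The medians are 0.43 for SOX4- and SOX11-linked neuronal genes, -0.44 for SOX2-linked genes and 1.11 for adrenergic markers.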

How the data were processed

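Total RNA, depleted of ribosomal RNA, was sequenced as 2 reads of 150 nucleotides from 6 libraries, 3 labelled EtOH and 3 labelled Tet. The authors deposited 1 table of estimated counts per library, with no scaling. Per the labels, STAR 2.7.1a and featureCounts 1.5.1 were used on GRCh38. Per the file headers, featureCounts 1.6.4 counted unique alignments over exons, divided reads evenly among overlapping genes and ignored strand. The study's methods state other counting options, strand among them, and the headers were followed here. Values that were not whole made up 12.3% to 14.7% of genes, so they were rounded for the tests, whose design had assumed whole counts. All 92 spike-ins were at 0.

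Genes were kept with filterByExpr, scaled by TMM and compared in edgeR 4.0.16 (R 4.3.3) with its quasi-likelihood F test, and p-values were adjusted by Benjamini-Hochberg over all 22443 genes tested (threshold 0.05). No replicate block was used. The SE is the log2 fold change divided by the square root of F, and 95% intervals use the fit's t distribution. TPM came from deposited counts and exon length. Log2 CPM used a prior count of 2. Ratios and shares of TPM were compared by exact two-sided permutation tests. The edgeR step was tested on simulated data. Alternatives covered scaling, filters, DESeq2 1.42.0, limma 3.58.1 (voom), the block, mitochondrial genes, each library left out and, added after seeing the data, GC content.

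The 9 genes and all lists were chosen with earlier results of these data known. Named by rule were, per list, genes past the threshold, or else the 3 with the lowest p at a mean of at least 1 TPM, together with neighbours within 10 kb and the 3 genes most like *SOX11* and *SOX4*. A gene that this rule names is not reported here. Coding windows came from GENCODE transcripts on GRCh38. Intervals and limits of detection cover counting error or the spread of these libraries only.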

Additional observations from a re-analysis of the deposited data

How the results depend on the processing

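Over 16 alternatives, *SOX4*, *SOX11*, *SOX5* and *SOX6* kept their direction. With 1 library left out, the log2 fold change ran from 0.13 to 0.59 for *SOX4*, 0.13 to 0.71 for *SOX11*, 0.51 to 1.04 for *SOX5*, -0.45 to -0.10 for *SOX6*, -0.41 to 0.20 for *SOX2*, -0.40 to 0.23 for *SOX9*, -0.14 to 0.96 for *SOX12*, -1.35 to 0.22 for *SOX10* (0.05 without Tet replicate 1) and -0.22 to 0.21 for *MYCN* (0.07 without Tet replicate 3). Without 1 library, the difference in share of SOX TPM ran from -0.00368 to 1.88 percentage points for *SOX11*, -0.301 to 0.510 for *SOX12* and -0.278 to 0.0427 for *SOX10* (0.000205 without Tet replicate 1).

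The replicate numbers were not shown to pair the libraries. Same-numbered libraries deviated together with correlations of 0.0603, 0.511 and 0.219, and 3 of 6 libraries correlated best with their own number. With the replicate block, 1 SOX gene passed, *SOX5* (log2 fold change 0.79, edgeR adjusted p = 0.0209), where 3.01% of all genes did. With it there also passed *SOX5-AS1* (0.92, edgeR adjusted p = 0.0351) and, in the lists, 4 higher genes (*SNAI2*, *TWIST1*, *DCX* and *NEUROG2*) and 3 lower ones (*NES* and, named after their values were seen, *HES1* and *PROM1*). The adjusted p of *SOX5* was 0.0209 to 0.833 over all alternatives.

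Genes past the threshold numbered 33 higher and 20 lower. They were 421 and 254 with the replicate block, 185 and 117 without a filter, 282 and 203 with DESeq2 on all genes, 346 and 260 with DESeq2 on the genes edgeR tested, 73 and 48 after GC correction, and 13 lower with RLE factors. Leaving out 1 library gave 0 to 361 higher and 0 to 331 lower, the most without EtOH replicate 2. Among other named genes, 416 of 446 values kept direction and call, 19 passed the threshold and 11 changed sign. The latter concern *MYCN* above, *SOX2-OT* (0.115 with limma-voom, 0.085 with the replicate block, -0.30 to 0.55 with 1 library left out), *C11orf58* (-0.093 to 0.44; -0.07 and -0.06 without EtOH replicates 1 and 3) and *POLR2F* (-0.70 to 0.33; 0.10 without Tet replicate 2). The cause was not tested.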
